A study of Mus musculus with 16 samples.

Results

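Ribosomal protein genes encode the protein part of the cytosolic ribosome, and 86 of the 53465 gene entries of the count table fit the rule used here. The rule took protein-coding genes whose symbol is Rpl or Rps followed by a digit, with Rplp0, Rplp1, Rplp2 and Rpsa, and left out the Rps6k kinases and names holding "-ps". It gave 52 Rpl genes, which name the large subunit, and 34 Rps genes, which name the small subunit. The symbols also bring in copies and look-alikes, among them Rps19bp1, a binding protein of Rps19 that is not part of the ribosome, so 77 of the 86 are called core members below. The filter on low counts passed 85 of the 86, and Rpl10l, a testis-type copy, was not tested.

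Bulk RNA-seq was read from 16 subcutaneous MC38 tumors, each from another female C57BL/6 mouse injected at 6 to 8 weeks of age with cells of this mouse colorectal carcinoma line. Mice were enrolled at a tumor volume of 150 to 250 mm3 and received 200 µg of control IgG or of antibody to PD-1 (aPD-1) on days 16 and 20, and tumors were taken on day 21. The groups are 8 IgG control tumors (replicates 1 to 8), 6 aPD-1 non-responders (replicates 9 to 14) and 2 aPD-1 responders (replicates 15 and 16), and the study set the responders apart by CD8 T cell staining, so T cell genes are no independent readout of that group. All tumors share 1 cell line and 1 host strain, and each library was made from frozen sections of whole tumor, host cells included.

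A ribosome holds close to equal numbers of each ribosomal protein, and the genes of the family are among the most abundantly transcribed in a growing cell. Their mRNAs typically begin with a C followed by an unbroken run of pyrimidines, the terminal oligopyrimidine (TOP) tract, through which mTORC1 signaling controls their translation. Free copies of some large subunit proteins bind Mdm2 and stabilize p53 when ribosome assembly is disturbed.

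Start site windows are shown for members that carry the comparison described below and for well-known TOP genes, since the tract is the sequence feature by which this family is recognized. Each window runs from 10 bases before to 20 bases from a RefSeq start of the gene (build GRCm38.p6), 5′ to 3′ on the gene's strand, with capitals marking a C followed by at least 6 further C or T.
Rpl15: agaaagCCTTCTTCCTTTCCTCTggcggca
Rps27l: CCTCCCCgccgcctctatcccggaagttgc
Rpl13a: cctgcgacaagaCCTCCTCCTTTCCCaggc
Rps6: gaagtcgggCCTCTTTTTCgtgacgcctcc
Rpl38: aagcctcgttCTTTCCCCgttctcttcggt
Rpl37: cctgggcggaagcttatccacaggaagtgg
Rpl10: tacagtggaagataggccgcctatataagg
Rps7: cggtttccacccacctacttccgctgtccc
The windows lie at chr14:18270967-18270996 on the minus strand for Rpl15, chr9:66946076-66946105 on the plus strand for Rps27l, chr7:45128726-45128755 on the minus strand for Rpl13a, chr4:86857348-86857377 on the minus strand for Rps6 and chr11:114668570-114668599 on the plus strand for Rpl38. Those without a capital run lie at chr15:5116603-5116632 on the plus strand for Rpl37, chrX:74270806-74270835 on the plus strand for Rpl10 and chr12:28635934-28635963 on the minus strand for Rps7. The Rpl37 window ends before the gene span given for Rpl37 below, so its letters do not show the start of that span. Rps27l has another RefSeq start, at chr9:66946403-66946432, whose window holds no run.

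RefSeq promoter entries matched 66 of the 86 members, with 78 starts. Such a pyrimidine run stood in the window at 30 of the 78 starts (38.5%), against 13.5% of the 32851 starts of all genes. CTTTCC on the gene's strand stood in 14.1% of the members' windows and in 1.28% of all windows. In the window from 250 bases before to 50 after the start, on either strand, CCGGAAG was found at 34.6% of the members' starts and 8.86% of all starts, and AAGATGGC at 10.3% and 2.75%. TATAAA on the gene's strand in the 50 bases before the start was found at 1 member start (1.28%) and at 2.63% of all starts. CTTTCC can lie within a pyrimidine run, and CCGGAAG can overlap AAGATGGC by its last letters. These matches are descriptions of the letters, and an annotated start can lie some bases from the true one.

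Library totals ran from 26603449 to 39948866 expected counts. The line derives from colon, and the defining intestinal markers were near absent. Cdx2 was listed at 0 in 15 tumors, Vil1 had at most 0.283 CPM and Krt20 at most 0.709 CPM (the count per TMM-scaled library size). Other epithelial markers were low but not absent, with Epcam at a median of 0.502 and at most 10.6 CPM, Krt8 at 0.338 and at most 31.9 CPM, Krt18 at 0.296 and at most 33.3 CPM, and Cdh1 at 3.75 to 9.78 CPM. Some tumors stand apart. IgG control replicate 3 held 21.8% of its counts in ribosomal RNA entries, against 0.303% to 0.765% in the other tumors. Replicates 1, 9 and 14 held 7.60%, 6.00% and 5.73% of counts in mitochondrially encoded genes, against 2.52% to 3.25% in the other 13, and IgG control replicate 6 held 2127 CPM of summed skeletal muscle markers. Counts of called genes are given below with and without replicates 1, 9 and 14. For the family itself, 73.9% of values were not whole numbers, against 18.8% over all genes (tolerance 0.005), and the counting program divides reads shared with near-identical copies, and the members' levels are uncertain to that extent.

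The ribosomal protein genes together took 5.67% to 10.1% of all counts in a tumor. The share was 8.11% ± 1.38 (SD, n = 8) in IgG controls and 9.06% ± 0.664 (SD, n = 6) in non-responders, and it was 7.04% and 7.40% in the 2 responders. The 95% Wilson interval of responder replicate 15, 7.03% to 7.05%, shows how small counting error was beside the spread between tumors. On the TMM-scaled library, which leaves the ribosomal RNA of replicate 3 mostly out, the shares were 6.60% and 7.02% in the responders. They were 7.69% to 9.35% in the non-responders and 7.23% to 10.2% in the IgG controls. Both responders then lay below all other 14 tumors. On total counts, IgG control replicate 3 was the lowest tumor at 5.67%, and without ribosomal RNA entries in the total it stood at 7.25%, against 7.06% and 7.43% in the responders.

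**Figure D1:**
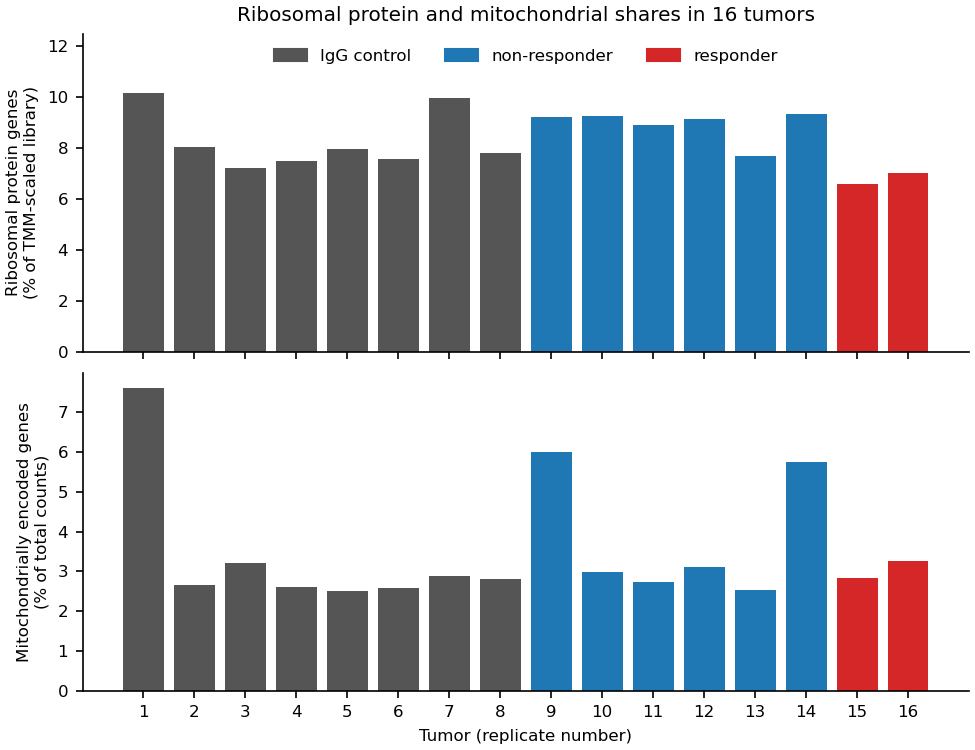
Summed level of the 86 ribosomal protein genes (top, percent of the TMM-scaled library) and of the mitochondrially encoded genes (bottom, percent of total counts), 1 bar per tumor, colored by group. The responder bars at 6.60% and 7.02% are the lowest of the top panel, and replicates 1, 9 and 14 are the highest of the bottom panel.

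The ratio of large to small subunit counts also differed. The summed Rpl counts were 1.34 and 1.37 times the summed Rps counts in the responders, below the 1.39 to 1.48 of the non-responders and the 1.42 to 1.53 of the IgG controls. The responders lay below all other tumors on this ratio, while the non-responders and IgG controls overlapped.

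The responder and non-responder tumors received the same antibody and differed in CD8 T cell infiltration, and their comparison asks what went with response. A part of the family was lower in responders. Of the 85 members tested, 14 passed an adjusted p of 0.05 and all 14 were lower, while 0 were higher. Over all 18251 genes tested, 4.34% were called lower and 15.4% higher. The median log2 fold change of the members was -0.40, against 0.02 over all genes, and 81 of 85 members had a negative value, against 48.3% of all genes. An unadjusted p below 0.05 in this direction was reached by 45 members, against 10.4% of all genes. None of the members passed the log2 fold change above 1 in size that the study added to its threshold, against 0.663% of all genes called lower with it.

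Of the 77 core members 12 were called lower, 10 of the 46 of the large subunit and 2 of the 31 of the small subunit. The medians were -0.44 and -0.35. Without replicates 1, 9 and 14 the counts were 35 of 46 and 16 of 31, against 14.7% of all genes called lower in that fit. In bulk tissue, fewer cells that express the family and less of its RNA per cell cannot be told apart.

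Rpl37, a small zinc-binding protein of the large subunit (chr15:5116645-5119140), had 570 and 656 CPM in the responders. The non-responders ran from 896 over a median of 1102 to 1416 CPM, and the IgG controls from 783 over 875 to 1526 CPM. Both responders lay below all other tumors, and the difference was the most negative of the family, with a log2 fold change of -0.90 ± 0.25 (SE) and an adjusted p of 0.0151 (edgeR quasi-likelihood test, as for all adjusted p-values here unless another tool is named).

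Rpl30 (chr15:34440505-34443640), of the large subunit, had 739 and 819 CPM in the responders, against 1061 to 1518 CPM in the non-responders with a median of 1308, and 879 to 1658 CPM in the IgG controls with a median of 1088. Its log2 fold change was -0.76 ± 0.21 with an adjusted p of 0.0171. Rps27a (chr11:29545846-29548109), which is made as a fusion with ubiquitin, had 778 and 808 CPM in the responders, against 981 to 1273 CPM in non-responders with a median of 1190 and 872 to 1327 CPM in IgG controls with a median of 1022. It had the smallest adjusted p of the family in this comparison, 0.013, at a log2 fold change of -0.56 ± 0.15. In both genes the responders did not overlap with any other tumor.

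Rpl8 (chr15:76904078-76906314), which lies at the catalytic core of the large subunit, varied little between tumors of a group. It had 1125 and 1243 CPM in the responders, 1438 to 1653 CPM in the non-responders with a median of 1609 and 1422 to 1712 CPM in the IgG controls with a median of 1501. With a log2 fold change of only -0.40 ± 0.11 it reached an adjusted p of 0.0186, and its expected counts were whole in every tumor. Rpl10 (chrX:74270812-74273135), which joins the large subunit late in its assembly, had 1072 and 1171 CPM in responders, 1354 to 1644 CPM in non-responders with a median of 1538 and 1333 to 1813 CPM in IgG controls with a median of 1402. Its log2 fold change was -0.44 ± 0.13 with an adjusted p of 0.0258. Rpl15 (chr14:18267823-18271391), of the large subunit, had 663 and 692 CPM in responders, 819 to 1131 CPM in non-responders with a median of 1000 and 785 to 1170 CPM in IgG controls with a median of 908. Its log2 fold change was -0.55 ± 0.17 with an adjusted p of 0.0283.

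The other core members called lower were Rpl23a, Rpl32, Rpl6, Rpl29, Rps7 and Rpl24. Their log2 fold changes ran from -0.66 for Rpl24 to -0.41 for Rps7, and Rpl24, at an adjusted p of 0.0498, stood at the threshold. The remaining 2 called genes were not canonical members. Rps27l, a p53-induced copy of Rps27, had 67.0 and 77.7 CPM in responders and 87.4 to 111 CPM in non-responders, at a log2 fold change of -0.51 ± 0.16 and an adjusted p of 0.0343. Rps19bp1 had 20.6 and 22.7 CPM in responders and 29.4 to 45.2 CPM in non-responders, at a log2 fold change of -0.77 ± 0.23 and an adjusted p of 0.0252. The responders were the 2 lowest tumors in both genes.

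Rpl38, Rpl19 and Rpl27 had log2 fold changes of -0.79 ± 0.34, -0.73 ± 0.28 and -0.69 ± 0.29, as large as those of the called genes, and adjusted p-values of 0.117, 0.0771 and 0.109 that did not pass, beside larger standard errors. Without replicates 1, 9 and 14, Rpl38, Rpl19 and Rpl27 were called lower, beside 14.7% of all genes in that fit. Near 0 stood Rplp2 (0.09 ± 0.13), Rps9 (-0.06 ± 0.11), Rpl9 (-0.08 ± 0.13) and Rps13 (-0.13 ± 0.11), with adjusted p-values from 0.487 to 0.77. Rps9 had the smallest within-group spread of the family, an SD of 0.08 in log2 CPM.

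**Figure D2:**
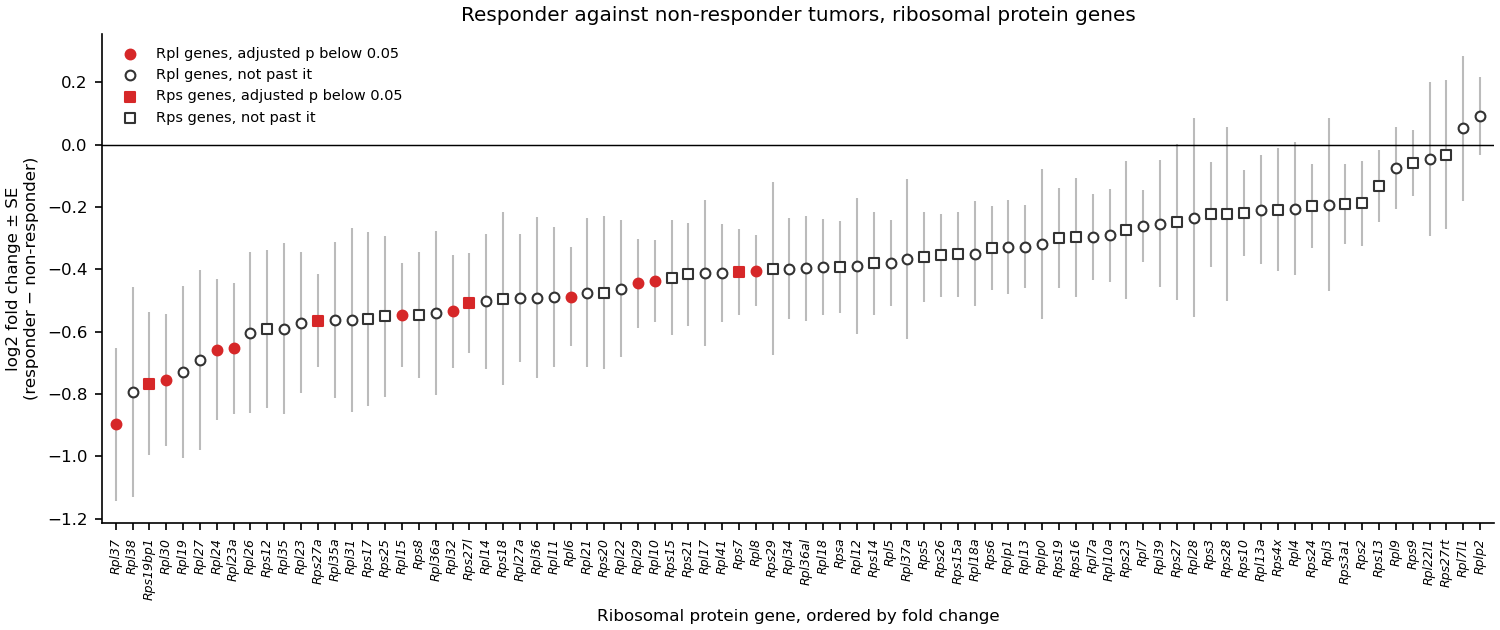
Log2 fold change with its standard error for ribosomal protein genes with a mean of at least 1 CPM, ordered from lowest to highest, circles for Rpl and squares for Rps genes, filled where the adjusted p is below 0.05. The 14 filled points are all below 0, from -0.90 for Rpl37, and Rplp2 is the highest point at 0.09.

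Counted gene by gene, 58 of 85 members (68.2%) had both responders under the lowest of the 6 non-responders, against 13.2% of all genes tested, and 0 members had both above the highest, against 21.5%. The responders lay below all other 14 tumors in 38 members (44.7%), against 7.84% of all genes.

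The P-stalk, which recruits elongation factors to the ribosome, is formed by Rplp0 with Rplp1 and Rplp2, and 0 of the 3 genes were called. Rplp0 had 2066 and 2431 CPM in responders and 2042 to 3553 CPM in non-responders, at a log2 fold change of -0.32 ± 0.24 and an adjusted p of 0.412. Rplp1 had 1066 and 1178 CPM against 1280 to 1520 CPM, at -0.33 ± 0.15 and an adjusted p of 0.147. Rplp2 had 316 and 275 CPM against 238 to 344 CPM, and against the IgG controls, at 238 to 273 CPM, it was the only member in which both responders lay above all 8. Without replicates 1, 9 and 14, Rplp0 and Rplp1 were called lower, against 14.7% of all genes in that fit. Of the 3 genes, Rplp1 alone had no overlap between responders and non-responders.

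Rpl5, Rpl11, Rpl23 and Rpl26 are among the proteins that link ribosome assembly to p53, and the list used here is not a full one. They had log2 fold changes of -0.38 ± 0.14, -0.49 ± 0.22, -0.57 ± 0.23 and -0.60 ± 0.26, with adjusted p-values of 0.0643, 0.147, 0.0906 and 0.12, so that 0 of the 4 passed. Without replicates 1, 9 and 14 all 4 were called lower, against 14.7% of all genes in that fit. In each of the 4 genes the responders lay below all other 14 tumors. Rpl5 was lowest in the responders at 957 and 1067 CPM, against 1146 to 1438 CPM in the non-responders. Of the 13 p53 target genes listed beside them, 1 was called higher, beside 15.4% of all genes, and 1 lower, beside 4.34%. The higher one was Trp53inp1 at a log2 fold change of 3.45 ± 0.19. The lower one was Sesn2, a stress-induced inhibitor of mTORC1 signaling, at -0.74 ± 0.24. The median of the 13 was -0.01, and without replicates 1, 9 and 14 a further gene, Eda2r, was called.

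Rpsa, the laminin-receptor protein of the small subunit, had a log2 fold change of -0.39 ± 0.15 with an adjusted p of 0.0752. Rps6, the classic target of S6 kinase, had -0.33 ± 0.14 with an adjusted p of 0.101, and Rpl13a, widely used as a reference gene, had -0.21 ± 0.17 with an adjusted p of 0.47. Of these, Rpsa and Rps6 had both responders below all other tumors, and Rpl13a did not. Without replicates 1, 9 and 14, Rpsa and Rps6 were called lower and Rpl13a was not, beside 14.7% of all genes called lower in that fit.

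Copies were set beside their canonical partners. Rpl22 had a log2 fold change of -0.46 ± 0.22 and its copy Rpl22l1 -0.05 ± 0.25, at 88.0 and 71.4 CPM in the responders against 64.5 to 102 CPM in non-responders. Rpl7 had -0.26 ± 0.12 and Rpl7l1, a related nucleolar protein, 0.05 ± 0.23. Rpl36a had -0.54 ± 0.26 and Rpl36al -0.40 ± 0.17, and all of their values were not whole, so reads shared by the pair were divided between them. None of these 6 genes passed the test with every tumor, and the difference between a copy and its partner was not tested. Without replicates 1, 9 and 14, Rpl22, Rpl7, Rpl36a and Rpl36al were called lower, beside 14.7% of all genes in that fit. Rps27rt, a retrotransposed copy of Rps27, had 6.48 to 13.9 CPM over the 16 tumors.

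Rpl3l, the muscle copy of Rpl3, had at most 0.395 CPM in every tumor but IgG control replicate 6, where it had 6.98 CPM, the tumor with the high skeletal muscle markers. Rpl39l, a testis copy of Rpl39, had 1.12 and 0.534 CPM in the responders and at most 0.881 CPM elsewhere, and did not pass the test (adjusted p of 0.526). Rps4l, a look-alike outside the rule because its entry is not annotated as protein-coding, had 9.52 and 3.18 CPM in the responders and 0.948 to 3.72 CPM in non-responders, at a log2 fold change of 1.81 ± 0.56 and an adjusted p of 0.0294, and this call was lost without replicates 1, 9 and 14. Against IgG controls Rps4l was also called higher, at an adjusted p of 0.0133, and that call held without those 3 tumors.

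Of ribosomal proteins with other symbols, Rack1 and Fau were called lower. Rack1, a signaling scaffold of the small subunit, had 1209 and 1356 CPM in responders against 1524 to 2118 CPM in non-responders, at a log2 fold change of -0.48 ± 0.15 and an adjusted p of 0.0352. Fau, a ubiquitin-like fusion gene that yields a small subunit protein, was called at -0.64 ± 0.21 with an adjusted p of 0.0412, at only 3.10 to 7.26 CPM over all tumors.

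Other gene groups of the translation machinery were read from lists of known members, beside 4.34% of all genes called lower, or 14.7% without replicates 1, 9 and 14. Of 16 translation factors with TOP mRNAs 5 were called lower and 0 higher, with a median of -0.28. The 4 with the smallest p were Npm1, a nucleolar chaperone of ribosome assembly, at -0.77 ± 0.17, the initiation factor subunits Eif3e at -0.66 ± 0.15 and Eif3h at -0.54 ± 0.13, and Eef1g, of the elongation factor complex, at -0.43 ± 0.12. Of 40 ribosome biogenesis factors 3 were called lower and 0 higher, with a median of -0.22, namely Nhp2, Ebna1bp2 and Nmd3. Without replicates 1, 9 and 14 the counts called lower were 12 of the 16 translation factors and 20 of the 40 biogenesis factors, with 1 biogenesis factor higher. Of 12 RNA polymerase I genes, which make ribosomal RNA, 1 was called lower, Taf1d at -0.76 ± 0.25, and 6 were without those 3 tumors. Of 18 regulators of growth and TOP mRNA translation, Eif4ebp1, the mTORC1-controlled repressor of initiation, was lower at -0.69 ± 0.17, Myc, which drives transcription of ribosomal protein genes, was lower at -0.76 ± 0.22, and Mxd4, a Myc antagonist, was higher at 0.95 ± 0.19, while the median of the list was -0.03. Without those 3 tumors 4 of the 18 were lower and 1 higher.

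Mitochondrial ribosomal proteins, nuclear-encoded like the cytosolic ones but serving the ribosome of the mitochondrion, were counted in the same way. Of 78 tested 20 were called lower and 0 higher, with a median of -0.35, and Mrps26 at -0.59 ± 0.14 had the smallest p. Nuclear subunits of oxidative phosphorylation had 14 of 78 called lower and 0 higher, with a median of -0.33, led by Atp5d at -0.63 ± 0.13. The cytosolic family, with 14 of 85 called and a median of -0.40, thus stood beside these families with values of the same order, and the differences between families were not tested. Without replicates 1, 9 and 14, 48 of the mitochondrial ribosomal proteins were called lower, and of the oxidative phosphorylation subunits 36 were lower and 1 higher. In that fit 14.7% of all genes were called lower. Against IgG controls, 20 of the 78 mitochondrial ribosomal proteins were called lower, beside 5.17% of all genes, and 49 without those 3 tumors, beside 19.6%.

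**Figure D3:**
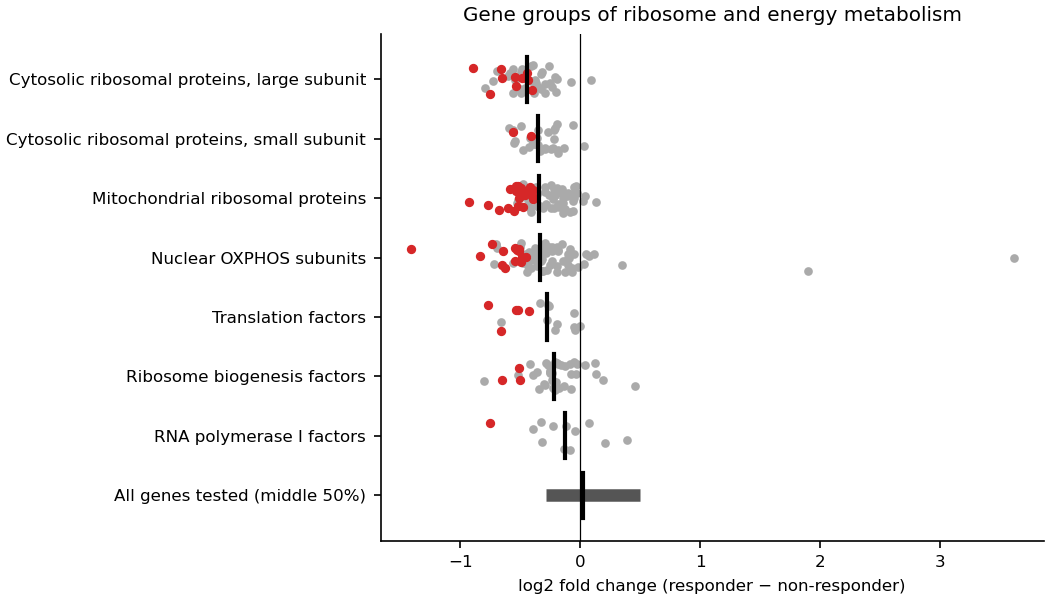
Log2 fold change of responders against non-responders for each gene of 7 groups, red where the adjusted p is below 0.05, with the group's median as a black bar, and the median with the middle 50% of all genes tested in the last row. Medians run from -0.44 for the large subunit to -0.13 for RNA polymerase I factors, against 0.02 for all genes.

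Markers of lymphoid and fat cells moved with the responder group, beside 15.4% of all genes called higher. All 10 B cell markers were called higher, and their summed level was 1524 and 389 CPM in the responders, against 2.76 to 8.33 CPM in non-responders and 1.94 to 9.47 CPM in IgG controls, where 5 of the 10 (Blk, Cd79a, Fcmr and Ms4a1 among them) were at 0 in at least 1 tumor. All 12 T cell markers were higher, at 449 and 437 CPM against 35.4 to 78.1 CPM and 26.3 to 62.3 CPM, with no marker at 0. All 8 fat cell markers were higher, at 2706 and 449 CPM against 22.8 to 106 CPM and 17.5 to 160 CPM, with Lep at 0 in an IgG control, and 4 of 5 plasma cell markers were higher, the fifth, Sdc1, being called lower without replicates 1, 9 and 14. Of 8 markers each, 1 of macrophages and 1 of fibroblasts were higher, a share near that of all genes, and 0 of skeletal muscle passed. The summed macrophage level was 2409 and 2601 CPM in the responders, against 1104 to 2298 CPM in non-responders and 1067 to 1872 CPM in IgG controls. Both responders lay above all other tumors in that sum, of which Lyz2 alone held 1293 to 1573 CPM in them. Lyz2, Mrc1 and Csf1r had both responders above all non-responders, as did 21.5% of all genes. Cd68, Adgre1, C1qa, Itgam and Fcgr1 overlapped between responders and non-responders. The summed fibroblast level overlapped, at 7744 and 6971 CPM against 5773 to 7930 CPM and 5491 to 8002 CPM. Of 8 proliferation genes, Cdk1 and Birc5 were lower, beside 4.34% of all genes, and 5 were without replicates 1, 9 and 14, beside 14.7%. The part of these cells in the level of the ribosomal protein genes was not tested.

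Replicates 1, 9 and 14 had a common shape within the family that no group label carries. In them, most mRNAs with short coding sequences stood well above their 16-tumor medians and the longest stood near or below them. Across 83 members, Spearman's rho between coding length and the deviation in log2 CPM was -0.50 in replicate 1, -0.65 in replicate 9 and -0.62 in replicate 14, and ran from -0.43 to 0.63 in the other 13 tumors. These values describe members that share a library, and no p is given. In replicate 1 the median deviation was 0.66 for the 11 members with a coding sequence under 300 bases and -0.07 for the 8 with over 800 bases. Replicate 9 had 0.64 and -0.16, and replicate 14 had 0.48 and -0.03.

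Rpl38, at 210 coding bases, stood 1.04, 0.92 and 0.78 above its median in replicates 1, 9 and 14, and Rps28, at 207 bases, 0.89, 0.75 and 0.62 above. Rpl3, at 1209 bases, which shapes the catalytic center, stood at -0.74, -0.80 and -0.59, and Rplp0, at 951 bases, at -0.71, -0.48 and -0.33. Rpl4, the longest at 1257 bases, stood at -0.66, -0.46 and -0.31. Length was not the whole pattern, since Rpl41, the shortest at 75 bases, stood at 0.05, -0.14 and 0.02. The same tumors had the highest share of mitochondrially encoded counts and the smallest libraries. The totals of replicates 1, 9 and 14 were 26603449, 30978294 and 29062834 counts, against at least 31724370 in the other tumors. The part of RNA quality, of library size or of any other factor in this pattern was not tested.

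**Figure D4:**
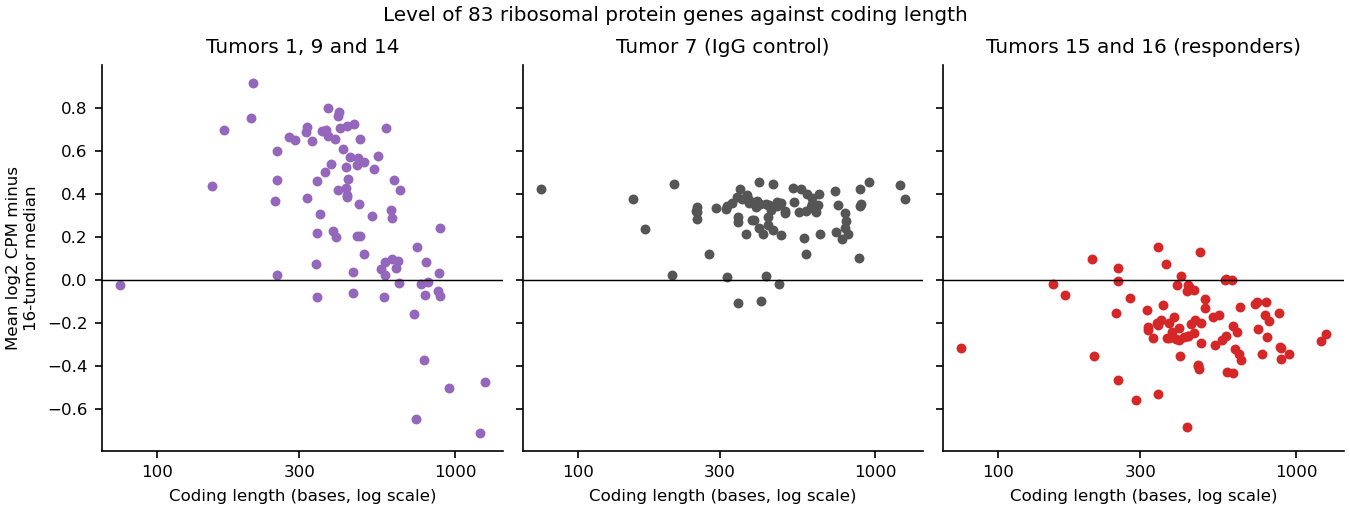
Mean deviation in log2 CPM from the 16-tumor median against coding length on a log axis, 1 point per ribosomal protein gene, for replicates 1, 9 and 14 together, for IgG control replicate 7 and for the 2 responders. Points fall with length in the first panel, stand mostly above 0 at all lengths in the second and mostly below 0 at all lengths in the third.

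In other tumors most of the family shifted one way, to an extent that also varied with length. In IgG control replicate 4, with the highest rho, 0.63, the median deviation was -0.21 for members under 300 coding bases and -0.01 for those over 800. Core members below their 16-tumor median numbered 3 of 77 in IgG control replicate 7 and 0, 1 and 3 in non-responder replicates 10, 11 and 12, with median deviations over all 83 from 0.14 to 0.34. They numbered 68 and 72 in the responders, with the most negative median deviations of all tumors, -0.27 and -0.18. They also numbered 66 to 76 in IgG control replicates 3, 4, 6 and 8 and in non-responder replicate 13, with median deviations from -0.17 to -0.04, so a low family was not seen in responders alone. Over the 16 tumors the first principal component of the 83 members held 76.9% of their variance and the second 15.3%, and the median Pearson correlation between members was 0.72, rising to 0.86 without replicates 1, 9 and 14. Within groups, Rpl38, Rpl28 and Rpl3 varied most, with SDs of 0.41, 0.38 and 0.37 in log2 CPM. Rpl28 had 1525 CPM in replicate 1 and 555 to 911 CPM in all other tumors.

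**Figure D5:**
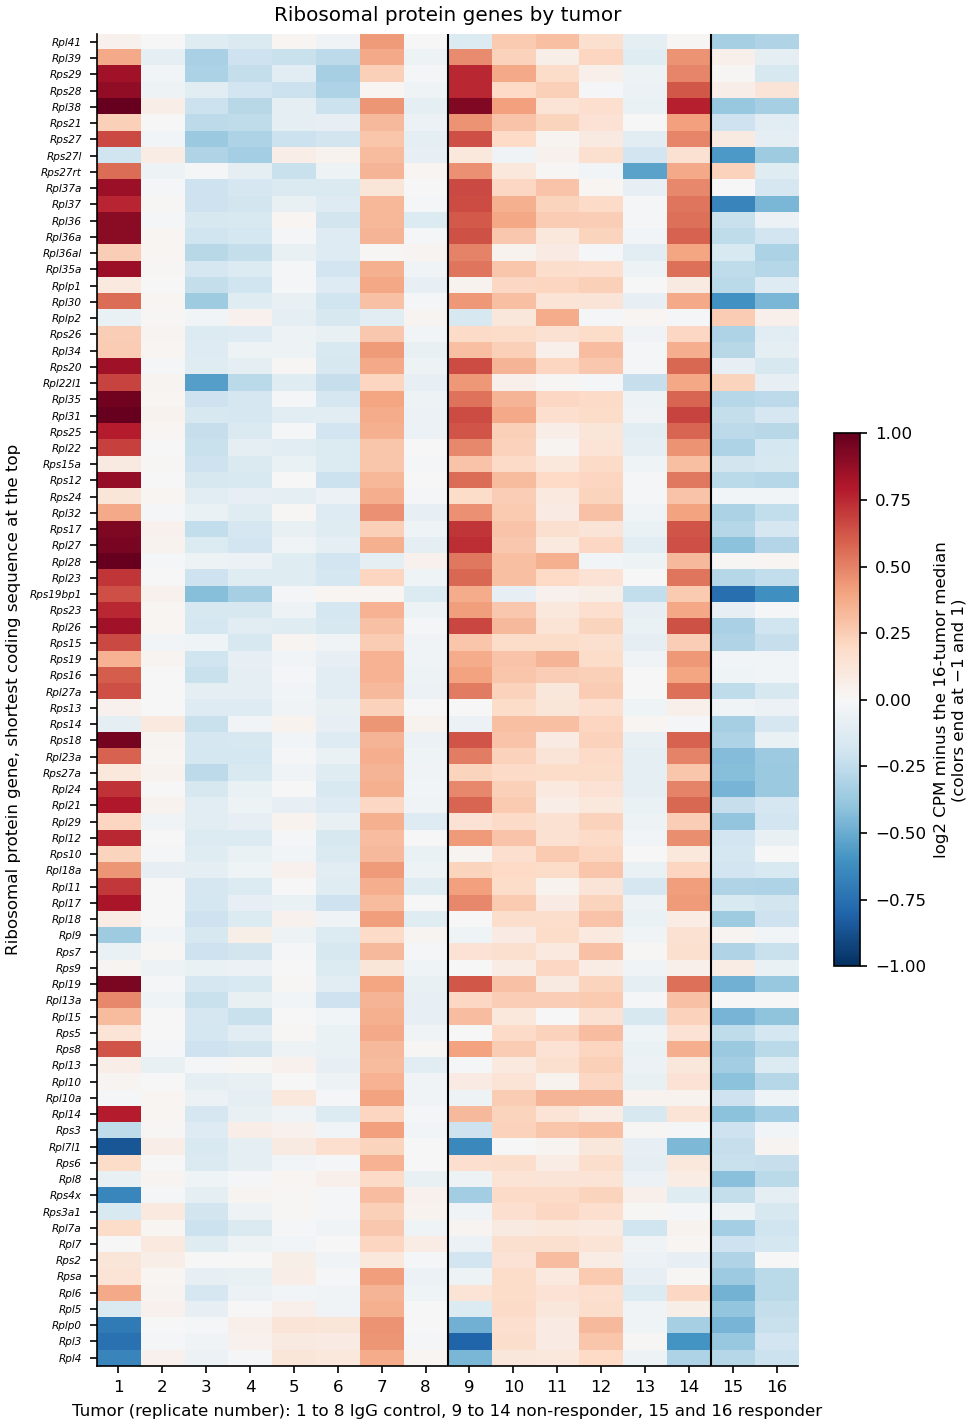
Deviation of log2 CPM from the 16-tumor median for ribosomal protein genes (rows, shortest coding sequence at the top) in 16 tumors (columns), red above and blue below the median, colors ending at -1 and 1. Replicates 1, 9 and 14 turn from red at the top to blue at the bottom, while replicates 7, 10, 11 and 12 are red and replicates 3, 4, 6, 15 and 16 are blue over most rows.

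How many members passed the test depended on single tumors. Without replicates 1, 9 and 14 together, 54 of 85 members were called lower in responders than in non-responders, against 14.7% of all genes in that fit, with a median of -0.41, and all 14 genes called with every tumor were among them. The same number, 54, was called without IgG control replicate 1 alone, against 11.2% of all genes. That tumor is in neither group compared, but the 3 groups share 1 estimate of the spread. Scaling and the low count filter were also set anew in that fit, and the fold changes moved too. The median went from -0.40 to -0.47 for members under 300 coding bases, and from -0.29 to -0.35 for those over 800. The part of the spread, the scaling and the filter in the count was not tested. The median standard error over 83 members was 0.20 with every tumor and 0.16 without replicate 1. In the fit without the 3 tumors, Rpl3 stood at -0.48 ± 0.13 (adjusted p of 0.015), Rplp0 at -0.53 ± 0.14 (adjusted p of 0.0116) and Rpl37 at -0.81 ± 0.15. The count rests on both responders too. Without responder replicate 15, 0 members were called, against 0.464% of all genes, and without responder replicate 16, 1 was (Rpl8), against 3.32%. DESeq2 called 22 members lower, against 5% of the genes it tested, the 14 among them, and scaling to total counts left 1, against 1.59%.

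Against IgG controls, which asks how treated responding tumors differ from tumors without treatment, 4 of 85 members were called lower in the responders and 0 higher, where 5.17% of all genes were called lower. The members' share was thus near that of all genes. They were Rps19bp1 (-0.70 ± 0.22, adjusted p of 0.0317), Rpl15 (-0.47 ± 0.16, adjusted p of 0.0451), Rpl10 (-0.37 ± 0.13, adjusted p of 0.047) and Rpl8 (-0.35 ± 0.11, adjusted p of 0.0282). The median of the members was -0.28, against -0.02 over all genes, and 77 of 85 had a negative value, against 51.6% of all genes. An unadjusted p below 0.05 in this direction was reached by 17 members, against 11.2% of all genes. Rpl37 stood at -0.65 ± 0.24 with an adjusted p of 0.0554 and Rpl30 at -0.57 ± 0.20 with an adjusted p of 0.0531. The 2 comparisons share the responder tumors. Both responders lay below all 8 IgG controls in 38 of 85 members, against 9.67% of all genes, and above them in 1 (Rplp2), against 19.3%. Without IgG control replicate 1, 14 members were called, against 12.3% of all genes, and without replicates 1, 9 and 14, 25 were, against 19.6%. Leaving out replicate 3 as well gave 23, against 17.1%. Without responder replicate 15 the count was 0, against 0.595%, and without replicate 16 it was 1, against 4.14%. DESeq2 called 11, against 6.11%, and scaling to total counts left 0, against 1.41%.

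Non-responders were set apart after treatment by CD8 staining, while no IgG control was, so antibody and selection cannot be told apart in their comparison. Between non-responders and IgG controls, 0 members were called in either direction by edgeR and 0 by DESeq2. An unadjusted p below 0.05 was reached by 3 members with higher values, against 2.56% of all genes, and by 0 with lower ones, against 1.24%. In this comparison 0% of all genes were called in either direction. The median log2 fold change was 0.13, against -0.01 over all genes, and 80 of 85 members had a positive value, against 48.7% of all genes. The highest among core members were Rpl38 (0.28 ± 0.21), Rps21 (0.27 ± 0.11), Rps28 (0.27 ± 0.18), Rps29 (0.27 ± 0.18) and Rpl39 (0.26 ± 0.13), all with coding sequences under 300 bases. The lowest were Rpl3 (-0.10 ± 0.18), Rpl4 (-0.06 ± 0.14), Rplp0 (-0.05 ± 0.16), Rps2 (0.00 ± 0.09) and Rpsa (0.02 ± 0.10), all with over 800. Adjusted p-values of these 10 genes were 0.987 or above. Spearman's rho between coding length and fold change was -0.69 over 83 members, and -0.53 without replicates 1, 9 and 14, of which the non-responders hold 2 of 6 tumors and the IgG controls 1 of 8.

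All 8 aPD-1 tumors together against the 8 IgG controls gave 0 of 84 members called in either direction by edgeR and 0 by DESeq2, and 0% of the 15775 genes tested were called. An unadjusted p below 0.05 was reached by 0 members, where 9.18% of all genes reached it with higher and 2.23% with lower values. A positive value was found in 62 of 84 members, against 48.9% of all genes. The median was 0.05, with values from -0.14 for Rpl3 to 0.77 for Rpl39l, and the smallest adjusted p was 0.526. Mice had been assigned to aPD-1 or IgG at random, so this comparison is free of the later selection by response. It pools the non-responders with the responders, whose medians against the same IgG controls had opposite signs, 0.13 and -0.28.

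Members with and without the pyrimidine run were set side by side. Of the 14 members called lower against non-responders, 8 had a RefSeq entry, and 2 of these, Rpl15 and Rps27l, had a run. Among all 66 members with an entry, 30 had a run, and the difference was not tested. Rpl37 counts as without a run, from a window that ends before its gene span. The median log2 fold change was -0.35 for the 30 tested members with a run and -0.39 for the 35 without.

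Levels between genes were compared per length, as CPM per kilobase of the longest principal transcript. Rps14 (2943 ± 430, SD over 16 tumors), Rps15 (2706 ± 474) and Rplp1 (2622 ± 343) stood highest of the 77 core members, and their spreads overlap. Rpl22 (219 ± 45.8), Rps20 (173 ± 41.6) and Rps15a (138 ± 17.4) stood lowest. The order depends on the transcript. With the shortest principal transcript Rps15a stood at 1121 and Rpl22 at 946. Rps20 has the same length, 3706 bases, under both choices, so its 173 could not change. The rank correlation of the 77 values under the 2 lengths was 0.83. Between the longest principal transcript and the union of all exons it was 0.76, and with that union Rps14 stood at rank 14.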

How the data were processed

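Bulk RNA-seq of 16 tumors, each taken as a replicate, was analysed from 1 table of expected counts that the authors deposited. Per the labels, poly(A) RNA was sequenced from strand-specific libraries, with STAR 2.6, RSEM 1.3.0 and build GRCm38 named in the submitters' processing notes. RSEM divides reads between near-identical copies. Expected counts were rounded to whole numbers, 92 spike-in entries were left out, and symbols, coordinates and lengths came from GENCODE M21. Totals per tumor ran from 26603449 to 39948866. Shares carry 95% Wilson intervals, which hold only the error of counting.

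Tests used edgeR 4.0.16 in R 4.3.3 (TMM scaling, filterByExpr, robust quasi-likelihood F test), in 1 fit of the 3 groups, or of the 2 treatments for all aPD-1 tumors, with Benjamini-Hochberg adjustment over all genes tested. Levels are TMM-scaled CPM and deviations use log2 CPM with a prior count of 2. Steps were tested on simulated data. The members and lists were chosen with earlier results of these data known. Genes were named by a rule: the 5 highest and 5 lowest core members per comparison, the P-stalk, p53 and copy lists, the extremes per length and within groups, 6 fixed genes and called list genes. The called members, and the genes of the length pattern, were named after their values were seen. No 2 libraries agreed within sampling noise, with a lowest chi-square per degree of freedom of 15.5 over 120 pairs. Alternatives were DESeq2 1.42.0, other scalings, other filters, smaller fits and leaving out tumors. Figures used matplotlib 3.10.9. Some genes that the rule names are not reported here.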

Additional observations from a re-analysis of the deposited data

Results flagged for a closer look

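Of 102 group-and-measure pairs tested for a single tumor far from the rest of its group, 28 were picked out, where chance alone picks about 1 in 20; members share libraries, so these are not independent. IgG control replicate 1 accounts for most of them. It stood high in Rpl37 (1526 CPM), Rpl38 (596), Rpl19 (2675), Rpl27 (1177), Rps28 (479.98), Rps29 (585), Rpl14 (2056), Rpl23 (2157), Rpl26 (1521), Rpl22 (673), Rpl36a (735), Rps15 (2016), Rps20 (1008), Rpl28 (1525) and Rps19bp1 (54.6 CPM), and low in Rpl7l1 (75.2 CPM). The same tumor had 7.60% of its counts in mitochondrially encoded genes.

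IgG control replicate 7 stood high in Rps13 (559 CPM), Rpsa (3752), Rpl5 (1607) and Rps14 (3053 CPM). Non-responder replicate 13 stood low in the family's share of counts (7.83%) and in Rps15 (1195 CPM), Rps27a (981) and Rpl13a (1638 CPM). Rpl3l stood high in IgG control replicate 6 (6.98 CPM) and non-responder replicate 10 (0.395 CPM), and IgG control replicate 3 had 21.8% of counts in ribosomal RNA entries. The causes were not tested.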

How the results depend on the processing

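The median log2 fold change of the members kept its sign in all 4 comparisons under every alternative, while the number of members called lower did not hold. Against non-responders the 14 became 1 with total-count scaling, 8 with a filter of at least 10 counts in 8 tumors, 54 without replicates 1, 9 and 14, 42 without replicate 3 as well and 22 with DESeq2. With only the groups compared the 14 became 21. Leaving out 1 tumor gave 0 (without responder replicate 15) to 54 (without IgG control replicate 1). Against IgG controls the 4 became 0 with total-count scaling or with only the groups compared, 2 with no filter or the stricter one, 25 and 23 without the 3 or 4 tumors and 11 with DESeq2, and 0 to 14 when 1 tumor was left out. The fits without several tumors together were chosen after seeing the data. The 16 members with whole counts in at least 90% of tumors took a mean share of 1.00%, 1.10% and 0.922% in IgG controls, non-responders and responders. That is the share of these members alone, not of the family. The whole family's mean share in responders was 6.81% on the TMM-scaled library, against 7.22% of total counts.

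Members near 0 against non-responders changed sign. Rplp2 was -0.031 without the 3 tumors and Rps9 0.00561 with total-count scaling. Rpl7l1 was -0.028 with no filter and -0.17 and -0.12 without the 3 or 4 tumors. With total-count scaling and without the 3 or 4 tumors, Rpl22l1 was 0.015, 0.064 and 0.11 and Rps27rt 0.028, 0.10 and 0.15. Leaving out 1 tumor gave -0.083 to 0.16 for Rplp2, -0.14 to 0.11 for Rpl7l1, -0.28 to 0.042 for Rpl22l1 and -0.30 to 0.078 for Rps27rt. The causes were not tested. With 2 responders, a fit without either rests on 1 tumor that is assumed to vary like the other groups. No paired analysis was possible because the labels number the mice uniquely and the groups share no replicate number.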
